A study of Mus musculus and Homo sapiens with 12 samples.

Results

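Input libraries of chromatin-associated RNA (caRNA) from K562 cells were compared with those from mouse embryonic stem cells (mESC). These are the 6 of the study's 12 libraries that were sequenced without pull-down, 3 from each line, and no m5C-IP library was used. Genes were matched by symbol, with case ignored, where the symbol occurred once in the mouse and once in the human annotation. This left 16409 shared genes of 54446 mouse and 58721 human genes counted, and symbols are given in capitals for both species. The mESC were wild type, of embryonic origin, and grew in serum medium with LIF, the GSK3 inhibitor CHIR99021 and the MEK inhibitor PD0325901, after passages on gelatin to clear feeder cells. The K562 cells, an established human leukaemia line of bone marrow origin, were wild type and grew in RPMI-1640 with serum and, per the labels, puromycin. In the labels an m5C antibody stands beside the K562 Input libraries as well, while the mESC ones list none, so the kind of library was taken from the titles. Species, cell line, medium and annotation all changed between the groups and cannot be told apart.

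caRNA is the RNA that stays with the chromatin pellet after cytoplasm and nucleoplasm have been removed. It is rich in nascent, intron-containing transcripts and in nuclear long non-coding RNAs (lncRNAs) such as MALAT1 and NEAT1, whereas spliced messages of housekeeping genes mostly leave for the cytoplasm. In bulk fractions of this kind, more transcription of a gene and longer retention of its RNA cannot be told apart. Nor can fewer cells of a type be told from less RNA per cell.

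Levels are given as CPM, a gene's counts per 1000000 counts in shared genes of the library. Counts in genes were 29007088 to 34752646 in mESC and 10477119 to 11865285 in K562, and shared genes took 89.7% to 89.9% and 84.4% of them. A floor of 3 counts stood for 0.0960 to 0.115 CPM in a mESC library and 0.300 to 0.339 CPM in a K562 library. Replicates were close. The chi-square of a pair of replicates, divided by its degrees of freedom, was 2.08 to 2.14 in mESC and 0.911 to 1.06 in K562, where 1 is counting noise alone. K562 replicate 1 differed from the other 2 by less than sampling noise. Replicates 2 and 3 differed by slightly more (1.06 over 11338 genes, p = 5.45e-06, chi-square test). With so many genes a small excess passes, so the test cannot tell whether the K562 libraries are separate replicates. All 3 K562 libraries were kept. Counted as 1 sample, they gave 6031 genes higher and 6311 lower in K562 of 13757 tested. No label says that replicates came from separate cultures, so p-values measure the spread between these libraries, which may be technical. Intervals and floors cover counting error only.

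A count of 0 in these files was often a matter of annotation. Of the shared genes whose whole span was covered by other genes on the same strand, 547 of 547 had 0 counts in all 3 mESC libraries and 659 of 680 in all 3 K562 libraries. Among genes with at least 50% of the span free, 752 of 15578 and 1169 of 15059 were at 0. Of genes covered whole by genes of the other strand, but free on their own, 77 of 515 were at 0 in mESC and 161 of 823 in K562. Stretches shared on a strand thus gave counts to no gene with few exceptions, a counting setting not given in the sources used here. Of 84 genes at 0 in K562 and at or above 50 CPM in mESC, 68 had under 50% of their human span free. Of 38 genes at 0 in mESC and at or above 50 CPM in K562, 34 had under 50% of their mouse span free. A gene with under 50% of its span free is called covered here, and its difference is not read as a change. Of the 12919 genes tested, 12000 were free over at least 50% of their span in both annotations.

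**Figure D1:**
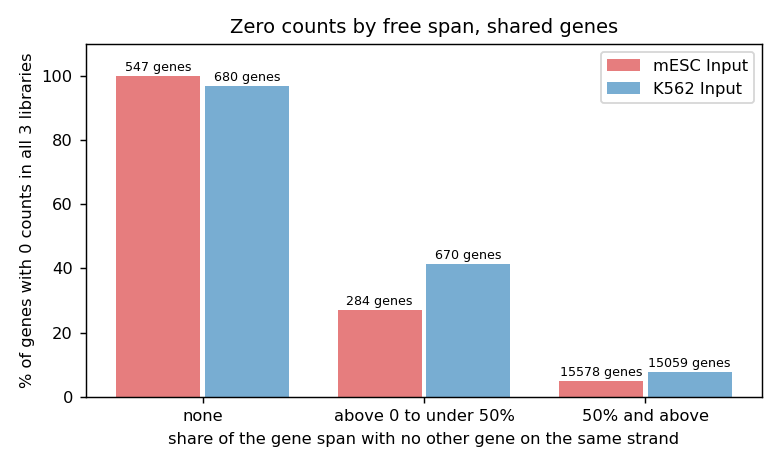
Percent of shared genes with 0 counts in all 3 libraries of a line (y axis) by the share of the gene's span that no other gene covers on the same strand (x axis), with the number of genes over each bar; mESC in red, K562 in blue. Genes with no free span were at 0 in 100% of cases in mESC and 96.9% in K562, against 4.83% and 7.76% of genes with at least 50% of the span free.

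The first comparison asked how far the chromatin-retained transcriptomes of the lines differed. Of 12919 tested genes, 5693 were higher and 6378 lower in K562 (edgeR quasi-likelihood test, Benjamini-Hochberg adjusted p under 0.05). That is 93.4% of tested genes, 44.1% higher and 49.4% lower, so the test by itself sets few genes apart. With a log2 ratio of at least 1 as well, 62.6% were called, of which 3709 were higher (28.7% of tested genes) and 4383 lower (33.9%), and the CPM of the groups did not overlap for 93.6% of genes. The median log2 ratio, K562 over mESC, was -0.13. Over the 12000 genes with a free span, 5414 were higher (45.1%) and 5760 lower (48.0%), and the median was -0.07. Calls in either direction made up 93.1% of them, and 60.3% with a log2 of at least 1.

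Across genes, Spearman's rho between the lines was 0.470 on CPM per kb of exonic length, 0.513 on CPM per kb of gene span and 0.565 on CPM, over 12919 genes. Over the 12000 genes with a free span the values were 0.527, 0.593 and 0.611. Between replicates of a line the lowest rho on these scales was 0.995. Genes are not independent replicates, and these values describe the order only. Of the 100 genes highest in CPM, 19 were the same in both lines (19% of each list), and of the 1000 highest, 435 were (43.5%). The 10 most abundant genes took 2.79% ± 0.0203 of counts in mESC and 2.33% ± 0.0239 in K562 (SD, n = 3), and the 1000 most abundant 47.6% ± 0.0532 and 45.7% ± 0.212. The libraries of the lines did not overlap in either share (exact two-sided permutation p = 0.1, the smallest that 3 against 3 allows; adjusted over 3 shares, 0.1).

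**Figure D2:**
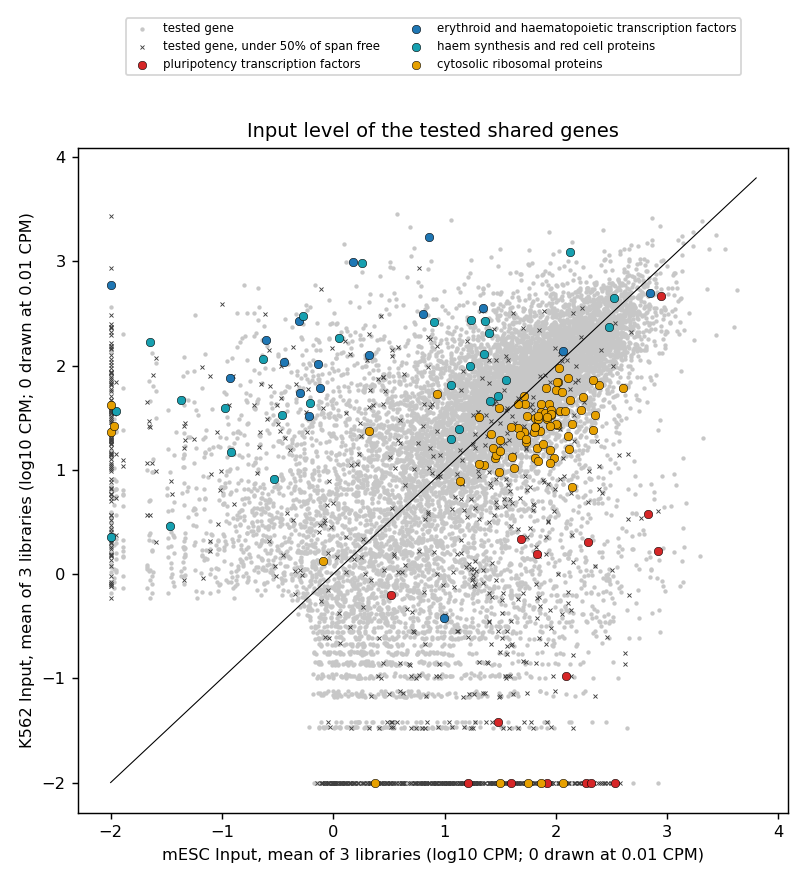
Mean CPM of each tested gene in the 3 mESC Input libraries (x axis, log10) and in the 3 K562 Input libraries (y axis, log10), with genes at 0 drawn at 0.01 CPM. Crosses are genes with under 50% of their span free; coloured points are members of 4 lists. Pluripotency factors (red) lie under the line of equality, erythroid genes (blue and teal) mostly above it, and ribosomal protein genes (yellow) mostly under it.

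The pluripotency transcription factors, which hold the self-renewing state of embryonic stem cells, were far lower in K562 than in mESC. All 15 tested of 16 listed were lower, against 49.4% of all genes, 14 of them by a log2 of at least 1, with a median log2 of -9.57 against -0.13 for all genes. With genes at 0 set at 3 counts the median was -8.56. Their summed level was 3721 ± 22.3 CPM in mESC and 482 ± 8.63 CPM in K562 (SD, n = 3). POU5F1, the octamer-binding factor Oct4, had 78.9, 84.7 and 85.6 CPM in the mESC libraries and 0 in each K562 library. NANOG, a homeodomain factor, had 199, 183 and 182 CPM in mESC and 0 in each K562 library. Against a floor of 3 counts over the K562 group, POU5F1 was at least 794-fold and NANOG at least 1783-fold lower. Both groups of libraries were tight and far apart, while 93.6% of all tested genes had groups that did not overlap.

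ZFP42 (Rex1), a marker of naive pluripotency, had 345, 349 and 336 CPM in mESC and 0 in each K562 library, at least 3272-fold lower. TBX3, a T-box factor of the naive state, had 206, 209 and 203 CPM and 0, at least 1961-fold lower. A 0 in K562 does not by itself show that RNA was absent: CDC42 and TARDBP, which cells in general use, were also listed at 0 in K562 with their human span free, at 147 and 306 CPM in mESC. Members with K562 counts were also low there. SALL4 had 125, 128 and 120.2 CPM in mESC and 0.0998, 0.103 and 0.113 CPM in K562. KLF4 had 67.9 CPM in mESC and 1.57 CPM in K562, a log2 of -5.51 (SE 0.10, edgeR adjusted p = 2.64e-38). TFCP2L1 and NR5A2, both high in naive cells, had 819 and 675 CPM in mESC against 1.67 and 3.8 CPM in K562. SOX2 was covered in both annotations, by a gene on its strand, and was listed at 0 in all 6 libraries.

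ESRRB, an orphan nuclear receptor of the naive network, was the exception in level. It had 881, 885 and 882 CPM in mESC and 471, 477 and 462 CPM in K562, a log2 of -0.99 (SE 0.016, edgeR adjusted p = 2.04e-40), and it stayed far above the other factors in K562. It took rank 78 of 16409 by CPM in mESC and rank 287 in K562. Its span was 161 kb in mouse and 191 kb in human (chr14:76310712-76501837, hg38), and per kb of span its level was 5.5 and 2.46 CPM. ESRRB alone held 469.8 of the 482 CPM of the list in K562.

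Among 20 other pluripotency-associated genes, 18 were lower and 2 higher in K562 (49.4% and 44.1% of all genes), with a median log2 of -9.11. The secreted signals FGF4, LEFTY2 and GDF3 had 112, 70.2 and 50.2 CPM in mESC and 0 in every K562 library, at least 1068-, 669- and 478-fold lower. TRIM71, an RNA-binding ubiquitin ligase, had 434 CPM in mESC and 0.452 CPM in K562. The 2 that were higher were LIN28B and DNMT3B. LIN28B, which blocks let-7 maturation, had 159.6, 153 and 163 CPM in mESC and 278, 266 and 288 CPM in K562, a log2 of 0.72 (SE 0.027, edgeR adjusted p = 5.98e-27). DNMT3B, a de novo DNA methyltransferase, had 108 CPM in each mESC library and 207, 206 and 201 CPM in K562, a log2 of 0.84. All K562 libraries lay above all mESC libraries for both genes, but the groups did not overlap for 93.6% of all tested genes.

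The erythroid side ran the other way. Of 17 tested erythroid and haematopoietic transcription factors, 15 were higher and 2 lower in K562 (44.1% and 49.4% of all genes), with a median log2 of 6.65; over those with a free span the counts were 14 higher and 2 lower of 16. GATA1, the zinc finger factor that drives erythroid genes, had 0.846, 0.707 and 0.64 CPM in mESC and 101, 105 and 103 CPM in K562, a log2 of 7.06 (SE 0.093, edgeR adjusted p = 3.66e-44). TAL1, a helix-loop-helix partner of GATA1, had 0.192, 0.236 and 0.32 and 182, 171 and 179 CPM, a log2 of 9.34. KLF1, which activates the adult globin genes, had 0.807, 0.404 and 0.608 and 33.4, 31.3 and 33 CPM, a log2 of 5.67. In each of the 3 genes the lines were separated by more than the whole range of either group. Groups without overlap were common, at 93.6% of all tested genes.

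The highest CPM of the list in K562 were at RUNX1 and CBFA2T3. RUNX1, needed for definitive blood formation, had 1725, 1711 and 1755 CPM in K562 and 7.23, 6.93 and 7.42 CPM in mESC, and took rank 13 of all shared genes by CPM in K562. CBFA2T3, a corepressor that binds TAL1 complexes, had 977 ± 9.09 CPM in K562 and 1.5 ± 0.172 CPM in mESC. Per kb of span the order changed. GATA1, KLF1 and TAL1 stood at 13.3, 11.7 and 11.1 CPM per kb in K562, ranks 60, 90 and 102, above RUNX1 at 1.42, whose human span ran to 1217 kb. LDB1, the bridge of the GATA1 complex, lay nearest to no difference, with 115 CPM in mESC and 139 CPM in K562 (log2 0.18). The 2 lower members were BCL11A, the silencer of fetal globin, with 9.82 CPM in mESC and 0.381 CPM in K562, and ETV6, with 700.2 CPM in mESC and 498 CPM in K562. ZFPM1 (FOG1) had 591 CPM in K562, but its mouse gene was covered and listed at 0.

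Genes of haem synthesis and of the red cell membrane followed. Of 29 tested, 28 were higher and 1 lower in K562 (44.1% and 49.4% of all genes), 22 of the higher by a log2 of at least 1. The median log2 was 4.66, and the summed level was 1012 ± 12.4 CPM in mESC and 5389 ± 27.5 CPM in K562. RHAG, the Rh-associated glycoprotein, had 173, 162 and 169 CPM in K562 and 2 counts in all of mESC, a CPM ratio of 7315 (95% interval 2024 to 60422). KEL, the Kell blood group protein, had 35.2, 36 and 39.5 CPM in K562 and 1 count in mESC, a ratio of 3202 (95% interval 573 to 126600). TRIM58, a ubiquitin ligase of late erythroid cells, had 0.0432 CPM in mESC and 47.2 CPM in K562. ANK1, which anchors the membrane skeleton, had 950.4, 968 and 977 CPM in K562 and 2.04, 1.68 and 1.76 CPM in mESC. RHAG, KEL and TRIM58 were close to the counting floor in mESC, whereas ANK1 lay above it. In every K562 library these genes were well above the floor.

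Among the enzymes of haem synthesis, ALAS2, the erythroid form of the first enzyme, had 0.344 CPM in mESC and 33.7 CPM in K562, a log2 of 6.55. UROD and UROS lay at log2 values of 2.44 and 2.41, and FECH and CPOX at 0.94 and 0.72. No test was made between them, and the order of these enzymes depends on length scaling, since CPOX lay at 2.87 per base of span. TFRC, the transferrin receptor, was nearest to no difference, with 333, 331 and 337 CPM in mESC and 443, 430.2 and 449 CPM in K562 (log2 0.32), and its sign turned when counts were scaled by gene length, to -0.96 per exonic base and -0.82 per base of span. SLC2A1, the glucose transporter, was the lower member, with 298 CPM in mESC and 236 CPM in K562.

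**Figure D3:**
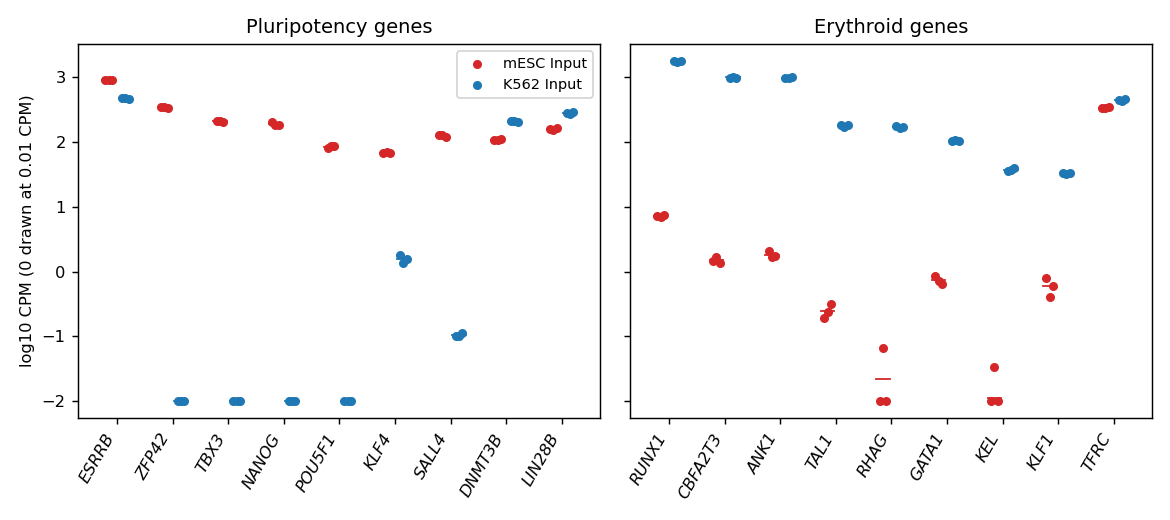
CPM on a log10 axis of 9 pluripotency-associated genes (left) and 9 erythroid genes (right) in each Input library, with a bar at the mean; mESC in red, K562 in blue, and values of 0 drawn at 0.01 CPM. ZFP42, TBX3, NANOG and POU5F1 sit at 0 in all 3 K562 libraries, ESRRB stays high in both lines, and TFRC is the erythroid gene with the smallest gap.

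The 250 bases before the gene start are shown for 4 of the erythroid genes named above, in human, and for NANOG, in mouse. They were chosen because they hold the letters marked. Sequences were read from hg38 and GRCm38 at the 5′ end of the GENCODE gene, 5′ to 3′ on the strand of the gene. In the human sequences capitals mark AGATAA or TGATAA, the letters GATA factors bind, on either strand. In the mouse sequence capitals mark ATGCAAA, part of the octamer, on either strand. The matches are letters, not shown sites of binding.
RHAG: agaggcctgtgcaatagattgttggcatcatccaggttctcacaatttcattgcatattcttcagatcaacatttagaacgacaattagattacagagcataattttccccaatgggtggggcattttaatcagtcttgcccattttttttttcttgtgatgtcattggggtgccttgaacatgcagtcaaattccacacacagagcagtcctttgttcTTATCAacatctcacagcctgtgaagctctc
KEL: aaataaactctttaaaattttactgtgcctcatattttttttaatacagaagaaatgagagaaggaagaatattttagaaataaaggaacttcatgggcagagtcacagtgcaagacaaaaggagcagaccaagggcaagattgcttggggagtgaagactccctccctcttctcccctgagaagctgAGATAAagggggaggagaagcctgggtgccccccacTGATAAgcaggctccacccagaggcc
KLF1: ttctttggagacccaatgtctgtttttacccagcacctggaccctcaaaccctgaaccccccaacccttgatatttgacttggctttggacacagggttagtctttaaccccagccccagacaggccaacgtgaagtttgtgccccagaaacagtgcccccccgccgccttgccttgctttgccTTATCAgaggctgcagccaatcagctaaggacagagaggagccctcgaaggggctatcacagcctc
TAL1: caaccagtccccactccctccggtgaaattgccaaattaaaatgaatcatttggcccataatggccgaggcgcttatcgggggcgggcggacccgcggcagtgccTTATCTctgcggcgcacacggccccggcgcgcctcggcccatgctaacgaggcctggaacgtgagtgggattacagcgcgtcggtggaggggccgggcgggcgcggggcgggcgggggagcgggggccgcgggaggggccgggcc
NANOG: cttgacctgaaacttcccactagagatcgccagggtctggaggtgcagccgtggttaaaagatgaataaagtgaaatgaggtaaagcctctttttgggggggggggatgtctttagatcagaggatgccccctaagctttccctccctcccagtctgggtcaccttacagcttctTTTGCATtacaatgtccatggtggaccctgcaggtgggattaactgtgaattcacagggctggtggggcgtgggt

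The human windows are RHAG at chr6:49636840-49637089, KEL at chr7:142962364-142962613, KLF1 at chr19:12887202-12887451 and TAL1 at chr1:47232226-47232475, all on the minus strand of hg38. The mouse window is NANOG at chr6:122707239-122707488 on the plus strand of GRCm38. The GATA letters began 31 bases before the start of RHAG, 66 before KLF1, 145 before TAL1, and 62 and 26 before KEL. Of the 47 erythroid and red cell genes, 13 held AGATAA or TGATAA in this window in human (27.7%), against 1938 of 16406 shared genes (11.8%). In mouse, 16 of the same 47 held them (34.0%), against 1943 of 16370 (11.9%). Of 36 pluripotency genes, 6 held them in human (16.7%) and 5 in mouse (13.9%). The octamer letters began 75 bases before NANOG and were in 2 of 36 pluripotency genes in mouse (5.56%) against 574 of 16370 (3.51%). In human they were in 4 of 36 (11.1%) against 584 of 16406 (3.56%). Of the 47 erythroid and red cell genes, 3 held them in human (6.38%) and 1 in mouse (2.13%). The shares are given as a description, without a test.

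Markers of other cell types were read next. For comparison with each list, 44.1% of all tested genes were higher and 49.4% lower in K562. Of 18 megakaryocyte and myeloid genes, 8 were tested, with 4 higher and 4 lower. ITGA2B, the platelet integrin CD41, had 2.59 CPM in mESC and 69.9 CPM in K562, and CD33, a myeloid lectin, 0.0459 CPM in mESC and 22.7 CPM in K562 (log2 8.67). CSF3R was nearest to no difference (log2 1.00), and its sign turned with scaling per exonic base (-0.33). KIT, the stem cell factor receptor, went the other way, with 280.0, 282 and 277 CPM in mESC and 1.2, 0.616 and 0.791 CPM in K562, and so did THBS1, with 85.1 CPM in mESC and 0.138 CPM in K562. MPO and ELANE, of granulocytes, and PF4, of platelets, were at 0.245 CPM, 0 and 0 in K562.

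Lymphoid markers were low in K562, with a sum of 63.8 ± 0.388 CPM over 19 genes. Of 9 tested, 4 were higher, 4 lower and 1, PAX5, did not pass (log2 -0.43, edgeR adjusted p = 0.165). EBF1, a B cell factor, had 183 CPM in mESC and 4.8 CPM in K562, and BLNK 2.27 CPM and 0, at least 21.7-fold lower. RAG1 had 37.7 CPM in K562 and a covered mouse gene. Fibroblast markers, which would show feeder cells, summed to 158 ± 1.77 CPM in mESC and 128 ± 0.685 CPM in K562 over 20 genes, and 13 were tested, 4 higher and 9 lower. COL1A2, a fibrillar collagen, had 21.9 CPM in mESC and 0.144 CPM in K562, LOX 8.52 CPM and 0 (at least 81.2-fold lower), and FBN1, nearest to no difference, 14.4 CPM in mESC and 9.18 CPM in K562. DCN, LUM and THY1, also fibroblast markers, were at 0.113, 0 and 0.662 CPM in mESC. Whether any of these counts came from feeder cells was not tested. COL6A3 was the member highest in K562, with 93.3, 96.6 and 96.7 CPM against 0.846, 0.841 and 1.22 CPM in mESC.

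Primitive endoderm markers were 1 higher and 7 lower of 8 tested (44.1% and 49.4% of all genes). LAMA1, a basement membrane laminin, had 263 CPM in mESC and 0.559 CPM in K562 and COL4A1 19.7 CPM in mESC and 0.144 CPM in K562. PDGFRA was covered in human. GATA6, the factor that defines that lineage, had 0.508 CPM in mESC and 0.966 CPM in K562, and its call (edgeR adjusted p = 0.0486) was lost in 6 alternatives, among them that without K562 replicate 2 (edgeR adjusted p = 0.807). Of 11 primed and germ layer markers 6 were tested, 3 higher and 3 lower. PAX6, an eye and neural factor, had 65.7, 69.9 and 72.5 CPM in K562 and 0.5, 0.471 and 0.864 CPM in mESC, EOMES had 9.79 CPM in mESC and 1 count in K562, a ratio of 279.8 (95% interval 50.1 to 11066), and FGF5 had 0.334 CPM in mESC and 1.41 CPM in K562. The HOX clusters, which pattern the body axis, held few counts in mESC (17 ± 0.614 CPM over 39 genes) and 335 ± 4.81 CPM in K562.

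The K562 HOX signal lay mostly in the B cluster on human chromosome 17. HOXB3 had 186, 182 and 179.7 CPM in K562 and 0.192, 0.101 and 0.16 CPM in mESC (log2 10.11, SE 0.096, edgeR adjusted p = 1.2e-49). HOXB7 had 0.123 CPM in mESC and 119 CPM in K562, and HOXB2 24.1 CPM in K562 against 1 count in mESC, a ratio of 2095 (95% interval 375 to 82878). In all, 8 HOX genes were tested, with 4 higher and 4 lower; the lower ones were at most 4.23 CPM in mESC, such as HOXC12 with 4.23 CPM in mESC and 0.87 CPM in K562, and HOXB9 among them was covered in human. Many HOX genes were covered, 13 in mouse and 17 in human.

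Genes of 9p21, the region of the cell cycle inhibitors p16 and p15 that is known to be lost in K562, were counted next. CDKN2A (chr9:21967752-21995301, hg38) had 5.38, 4.54 and 5.09 CPM in mESC and 0 in each K562 library, at least 47.6-fold lower, and CDKN2B 0.83 CPM and 0, at least 8-fold lower. MTAP had 120.4 CPM in mESC and was covered in human. Copy number was not measured in these libraries.

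The next comparison was of lncRNAs. Of 37 chromatin-enriched and host lncRNAs listed, 29 were tested and 6 were higher and 22 lower in K562 (44.1% and 49.4% of all genes), with a median log2 of -1.52 against -0.13; over those with a free span the counts were 6 higher and 17 lower of 24 and the median -1.24. As a share of shared-gene counts they took 0.972% ± 0.0175 in mESC and 0.403% ± 0.00815 in K562 (SD, n = 3), a ratio of 0.415 that did not overlap between the lines (exact permutation p = 0.1, the smallest possible; adjusted over 14 classes, 0.1). MALAT1, a nuclear speckle RNA, carried most of that gap. It had 4413, 4095 and 4205 CPM in mESC, the highest of any shared gene, and 511, 512 and 564 CPM in K562, a log2 of -3.09 (SE 0.023, edgeR adjusted p = 7.19e-54). Its neighbour NEAT1, the scaffold of paraspeckles, had 558, 556 and 569 and 638, 633 and 677 CPM, a log2 of 0.12 with an edgeR adjusted p of 6.29e-08. MALAT1 and NEAT1 lie side by side on human chromosome 11 and mouse chromosome 19. Per kb of span MALAT1 took rank 2 in both lines, at 607 and 50.7 CPM per kb, while NEAT1 took ranks 96 and 11, at 27 and 28.5.

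Among lncRNAs of the X chromosome, JPX and FTX, which lie in the X inactivation centre, were higher in K562. JPX had 249.8, 245 and 254 CPM in K562 and 0.692, 0.37 and 0.544 CPM in mESC, and FTX 402, 393 and 399 and 61.9, 59.5 and 62.2 CPM. The spans of the JPX and FTX genes overlap in both annotations, on opposite strands. FIRRE, which anchors the inactive X to the nucleolus, was lower, with 568 CPM in mESC and 139.6 CPM in K562. KCNQ1OT1, an imprinted silencing RNA, had 961 CPM in mESC and 345 CPM in K562, and the imprinted MEG3 372, 377 and 370.2 CPM in mESC and 0.899, 0.513 and 0.791 CPM in K562. PVT1, next to MYC, had 1176 CPM in mESC and 767 CPM in K562. Of the host genes of small nucleolar RNAs, GAS5 had 306 CPM in mESC and 69.3 CPM in K562 (log2 -2.23), and SNHG1 126 CPM in mESC and 38.3 CPM in K562. DLEU2 was nearest to no difference, with 285 CPM in mESC and 302 CPM in K562 (edgeR adjusted p = 0.992), though it was lower past the threshold per base of span (log2 -0.68) and per base of free span (-0.87).

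Some noncoding genes could not be compared. RN7SK, SNHG20, MIR670HG and SCARNA2 had 214, 31.2, 3.93 and 162 CPM in mESC, and their human genes were covered and listed at 0. TERC, the telomerase RNA, had 94.4 CPM in mESC and 3 counts in K562, where 19% of its span was free. Of 112 snoRNA genes, 105 were covered in mouse and 111 in human. SNORA57 and SNORD118 were covered in human, and SNORD13, free in both annotations, had 9.29 CPM in mESC and 3.64 CPM in K562, a log2 of -1.44 (edgeR adjusted p = 2.84e-11). Over 57 genes annotated as lncRNA in both species, 38 were tested, with 9 higher and 25 lower (44.1% and 49.4% of all genes). Their share of shared-gene counts was 0.953% ± 0.016 in mESC and 0.457% ± 0.00963 in K562. Over all annotated genes the order of the lines was the other way. The 9680 mouse lncRNA genes took 4.54% ± 0.151 of gene counts in mESC and the 14734 human ones 7.72% ± 0.0283 in K562, over annotations that list different genes.

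The study is about m5C on RNA, so the 11 genes of that pathway were read in the Input. Of these, 3 were higher, 7 lower and 1 did not pass, where 44.1% of all tested genes were higher and 49.4% lower. TET2, a dioxygenase that oxidises 5-methylcytosine, had 642, 662 and 653 CPM in mESC and 149, 148 and 146 CPM in K562. By edgeR its log2 ratio was -2.23 with a SE of 0.022 (adjusted p = 4.5e-49). The form typical of embryonic stem cells, TET1, had 1307, 1329.9 and 1315 and 265, 263 and 257 CPM, which is -2.42 on the log2 scale. TET3 ran opposite, with 29, 28 and 28.6 and 343, 342 and 347 CPM, a log2 of 3.51. Of the 3 TET genes, TET1 was the highest in mESC and TET3 the highest in K562, also per kb of span (12.6 and 2.79 CPM per kb).

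NSUN2 and TRDMT1 are RNA methyltransferases. NSUN2 had 199 CPM in mESC and 147 CPM in K562 (log2 -0.52), which turned to 1.47 when counts were scaled per base of span, while TRDMT1 had 10.5 CPM in mESC and 43.6 CPM in K562 (log2 1.97). MBD6, a protein with a methyl-binding domain, had 23, 25.1 and 25.7 CPM in mESC and 81, 78 and 79.5 CPM in K562, and MBD5 had 305 CPM in mESC and 230.3 CPM in K562. BAP1, the H2A deubiquitinase, did not pass, with 41.1, 41.9 and 41.8 and 43.5, 40.3 and 41.9 CPM (log2 -0.07, edgeR adjusted p = 0.184), but was higher past the threshold per base of span (log2 0.25) and per exonic base (0.13). PSPC1, a paraspeckle protein that recruits TET2, had 459 CPM in mESC and 218 CPM in K562 (log2 -1.16).

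Targets of signalling pathways were read next. The mESC medium holds a MEK inhibitor and a GSK3 inhibitor, which act on the MAPK and Wnt pathways, and LIF, which acts through JAK and STAT3; the part of the medium was not tested. Of 16 MAPK feedback and early response genes, 5 were higher and 9 lower (44.1% and 49.4% of all genes). EGR1, an immediate early factor, had 37.6, 41.1 and 39.2 CPM in K562 and 0.192, 0.202 and 0.192 CPM in mESC, FOSL1 had 0.484 CPM in mESC and 35.9 CPM in K562, and SPRY1, a feedback inhibitor, 7.07 CPM in mESC and 0.321 CPM in K562. SPRED2 did not pass (425 CPM in mESC and 452 CPM in K562, edgeR adjusted p = 0.854), but was higher past the threshold per base of span (log2 0.12). Of 10 Wnt targets, 2 were higher and 8 lower (44.1% and 49.4% of all genes). Over those with a free span, 1 was higher and 6 lower of 7. CDX1 had 46.2 CPM in mESC and 1 count in K562, a ratio of 1324 (95% interval 237 to 52290), LGR5 1.36 CPM and 2 counts, a ratio of 19.2 (95% interval 5.21 to 161), and RNF43 was covered in human. TCF7 was covered in mouse, with 44.1% of its span free, so its difference is not read as a change. It had 19.9 CPM in mESC and 36.2 CPM in K562, and its sign turned per exonic base (-0.94). LEF1 had 20.7 CPM in mESC and 91 CPM in K562.

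Of 10 JAK-STAT targets, 8 were higher and 2 lower in K562 (44.1% and 49.4% of all genes), with a median log2 of 1.79. PIM2, a survival kinase, had 69.2, 68.2 and 71.5 CPM in K562 and 3.35, 3.23 and 2.91 CPM in mESC. The feedback genes CISH and SOCS1 had 3.36 CPM in mESC and 56.8 CPM in K562, and 0.671 CPM in mESC and 9.4 CPM in K562, whereas SOCS2 lay nearest to no difference with 63.2 CPM in mESC and 86.9 CPM in K562 and SOCS3, a LIF target, was lower with 30.6 CPM in mESC and 21.4 CPM in K562, a sign that turned per base of span (0.08). The p53 targets, 8 higher and 9 lower of 17, were near those shares. BBC3 had 5.72 CPM in mESC and 87.3 CPM in K562, EDA2R 91.4 CPM in mESC and 0.21 CPM in K562, PHLDA3 9.37 CPM in mESC and 1 count in K562, a ratio of 268 (95% interval 48 to 10611), and MDM2 144 CPM in mESC and 132 CPM in K562.

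**Figure D4:**
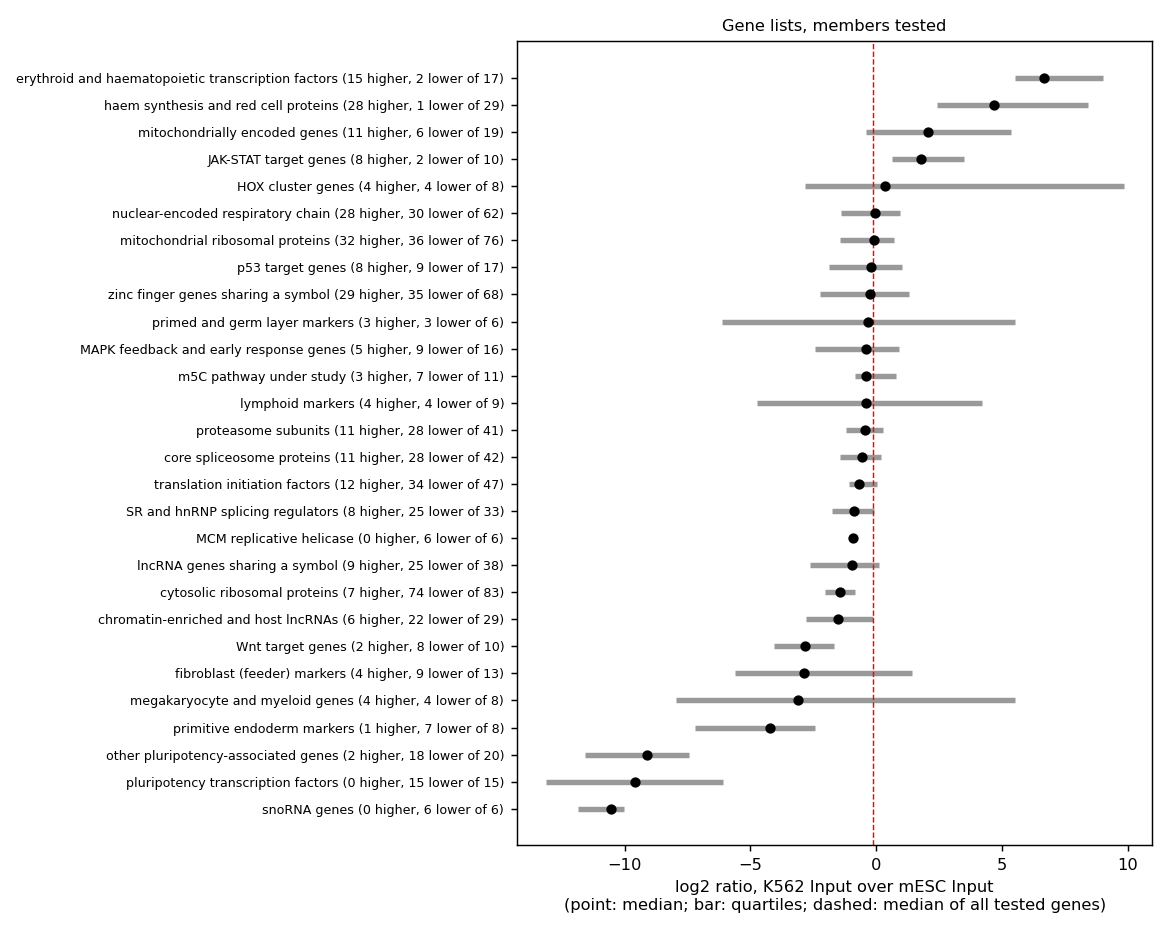
Median log2 ratio, K562 Input over mESC Input (x axis; point), with quartiles (bar), for each list with at least 6 tested members, and how many members passed the test in each direction. The dashed line is the median of all tested genes, -0.13. Erythroid lists sit at the top, with medians of 6.65 and 4.66, and pluripotency lists near the bottom, at -9.57 and -9.11. Medians are over all tested members, covered ones included. The median of the snoRNA genes, with 1 of 6 tested members free in both annotations, is not read as a change.

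Housekeeping classes came next. Cytosolic ribosomal protein genes were 7 higher and 74 lower of 83 tested (background 44.1% and 49.4%), with a median log2 of -1.43; of those with a free span the counts were 3 higher and 69 lower of 74. They took 0.66% ± 0.00244 of counts in mESC and 0.245% ± 0.00221 in K562, a ratio of 0.372. The range over libraries was 6571 to 6619 CPM in mESC and 2429 to 2474 CPM in K562. RPL37A was nearest to no difference, with 51.2 CPM in mESC and 51.5 CPM in K562 (edgeR adjusted p = 0.134), but a log2 of -4.66 when counts were scaled per base of span. RPL17 and RPL26 were at 56 and 115 CPM in mESC, and their human genes were covered. Many ribosomal protein genes have processed copies elsewhere in the genome, to which reads may align as well, and how the counts treat such reads was not tested.

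Among genes of translation and splicing, too, more members were lower than higher (49.4% and 44.1% of all genes). Translation initiation factors were 12 higher and 34 lower of 47 (median log2 -0.69). EIF4A2, an RNA helicase, had 711, 701 and 717 CPM in mESC and 69.9, 71.3 and 76.2 CPM in K562, EIF3C had 161 CPM in mESC and 15.6 CPM in K562, and EIF3F 32.9 CPM in mESC and 33 CPM in K562 (edgeR adjusted p = 0.245), which became lower past the threshold at a log2 of -2.24 per exonic base and -1.55 per base of span. EIF4A1 was covered in human. SR and hnRNP splicing regulators were 8 higher and 25 lower of 33 (median -0.88) and core spliceosome proteins 11 and 28 of 42 (median -0.55). PRPF8, at the heart of the spliceosome, had 358, 356 and 357 and 51.6, 55.6 and 48.3 CPM, and U2AF1, which reads the 3′ splice site, 182 CPM in mESC and 11.1 CPM in K562. U2AF1 and EIF3C each have a near-identical human copy, so their K562 counts are uncertain. SNRNP35, of the minor spliceosome, was higher, with 11.3 CPM in mESC and 54.8 CPM in K562, and U2AF2 did not pass (125 CPM in mESC and 133 CPM in K562, edgeR adjusted p = 0.904), but was higher past the threshold per base of span (log2 0.20). HNRNPUL1 had 217 CPM in mESC and 218 CPM in K562; HNRNPA1, HNRNPUL2 and SRSF1 were covered in human.

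For nuclear genes of mitochondrial proteins the counts over all tested members were near the background shares. Mitochondrial ribosomal protein genes were 32 higher and 36 lower of 76 (median log2 -0.10), and nuclear-encoded respiratory chain genes 28 and 30 of 62 (median -0.06). Over members with a free span both medians changed sign. The mitochondrial ribosomal genes were then 30 higher and 29 lower of 67 (median 0.02). The respiratory chain genes were 26 higher and 20 lower of 50 (median 0.23, against -0.07 for all free genes). Their shares of counts were 0.273% ± 0.00215 and 0.21% ± 0.00221 in mESC and 0.238% ± 0.00156 and 0.245% ± 0.000794 in K562. MRPL16 (14.1 CPM in mESC and 14.9 CPM in K562, edgeR adjusted p = 0.924) and NDUFB5 (42.4 CPM in mESC and 45.2 CPM in K562, edgeR adjusted p = 0.927) did not pass, but per base of span MRPL16 was higher (log2 0.38) and NDUFB5 lower (-0.24) past the threshold. The extreme members were covered in 1 species: MRPL12, MRPS28, NDUFA7 and NDUFA9 in human, and MRPL33 and COX4I1 in mouse. Proteasome subunits were 11 higher and 28 lower of 41 (median -0.45), with PSMC4 at 37.6 CPM in mESC and 39.5 CPM in K562 and PSMA2, PSMA6 and PSMD9 covered in human. The 6 MCM helicase genes, which license replication, were all lower, as were 49.4% of all tested genes. MCM2, MCM3 and MCM5 had 179, 251 and 265 CPM in mESC and 77.5, 137 and 133 CPM in K562. MCM4 had 103 CPM in mESC and 92.3 CPM in K562.

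Mitochondrially encoded genes took 0.121% ± 0.00179 of counts in mESC and 0.0383% ± 0.00416 in K562, a ratio of 0.317. Yet 11 of 19 tested were higher and 6 lower in K562. The sum in mESC lay in MT-RNR2, MT-RNR1 and MT-CO1, with 537, 186 and 264 CPM against 47.5, 24.9 and 46.4 CPM in K562. MT-ATP6 had 0.144 CPM in mESC and 13.9 CPM in K562, MT-CO2 0.854 CPM in mESC and 18.4 CPM in K562 and MT-CO3 0.609 CPM in mESC and 25.8 CPM in K562. MT-ATP8 and MT-TS1 had 2 and 3 counts in mESC, with ratios of 102 (95% interval 27.1 to 859) and 67.9 (95% interval 22.3 to 338). MT-ND6, on the light strand, did not pass (27.2 CPM in mESC and 28.9 CPM in K562, edgeR adjusted p = 0.996), but was higher past the threshold per base of span (log2 0.39). Within mESC these genes ranged widely from 0.0219 CPM to 537 CPM, and nuclear copies of mitochondrial sequence can take such reads, whose part was not tested.

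Zinc finger genes sharing a symbol were 29 higher and 35 lower of 68 (44.1% and 49.4% of all genes), with a median log2 of -0.24. ZBTB1 did not pass (38.1 CPM in mESC and 40.2 CPM in K562, edgeR adjusted p = 0.927), but was higher past the threshold per base of span (log2 0.24), and ZBTB26 in mouse and ZSCAN26 in human were covered. Clustered protocadherins were covered almost throughout, and PCDHGA1 had 0.806 CPM in K562 with its mouse gene covered.

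The share of caRNA counts was then read by gene length. Genes were cut into 5 classes of equal number by the geometric mean of the mouse and human span. The longest class, above 81.6 kb, took 48.5% ± 0.0729 of counts in mESC and 49.7% ± 0.172 in K562 (SD, n = 3). The shortest, up to 7.16 kb, took 2.6% ± 0.0159 and 2.02% ± 0.0211. The middle class took 14.6% ± 0.0223 and 14.6% ± 0.0627, which overlapped between the lines (exact two-sided permutation p = 1). In the other classes the libraries did not overlap (exact p = 0.1, the smallest possible; 0.12 adjusted over 6 classes), although the differences were at most 1.26 percentage points. The 501 genes of at least 300 kb in both annotations took 8.94% ± 0.0173 and 9.03% ± 0.0399, and that order turned with the choice of denominator. So did that of the longest class, to -1.56 percentage points (K562 minus mESC) over all genes of each annotation, and to -3.43 when classes were set by exonic length.

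Single long genes differed more than their total. Of 498 tested genes of at least 300 kb, 107 were higher and 251 lower in K562 by a log2 of at least 1 (against 28.7% and 33.9% of all genes), and the median log2 was -1.05, with quartiles of -3.35 and 0.60. In the longest class the median was -0.38, and in the middle class -0.02. Of the genes of at least 300 kb, 28.1% lay within a log2 of 1, against 42.8% in the class from 35.7 to 81.6 kb. In the shortest class the share was 30.4%, so a wide spread was not particular to long genes.

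**Figure D5:**
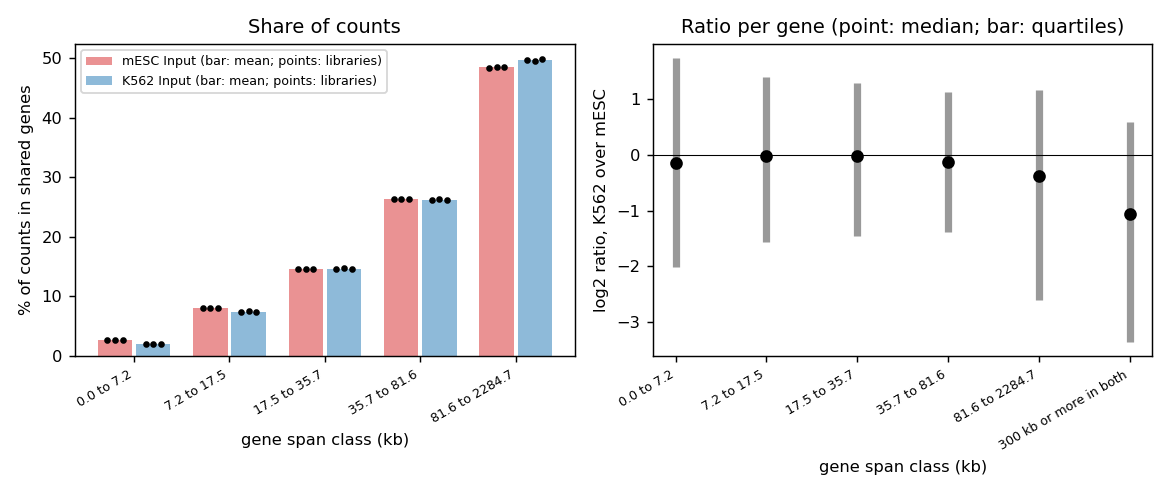
Left: percent of shared-gene counts in 5 classes of gene span (bars, mean; points, libraries; mESC red, K562 blue), which are nearly equal in the lines. Right: log2 ratio per tested gene, K562 over mESC, as median (point) and quartiles (bar), in the same classes and in genes of at least 300 kb in both annotations, where the median falls to -1.05.

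The long genes at both ends were named by rank of log2. Lower in K562 were PTPRG, a receptor phosphatase, with 1965, 1967 and 1980.1 CPM in mESC and 0.998, 2.16 and 1.36 CPM in K562. RANBP17, a nuclear transport receptor, had 1292, 1307 and 1309 and 0.799, 0.719 and 0.791 CPM. TENM3, a neuronal adhesion protein, had 1349.7 CPM in mESC and 1.32 CPM in K562, and DOCK1, an exchange factor for RAC, 891 CPM in mESC and 0.862 CPM in K562. PTPRK had 825 CPM in mESC and was listed at 0 in K562. Higher in K562 were SLC25A21, a mitochondrial carrier, with 1475, 1479 and 1473 CPM in K562 and 1.77, 0.942 and 1.02 CPM in mESC. PLCL1 had 1.29 CPM in mESC and 990.0 CPM in K562, and CALN1, a calcium-binding protein of brain, 1.45 CPM in mESC and 983 CPM in K562. GSE1, also at this end, was covered in mouse.

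The most abundant genes by CPM in mESC were MALAT1, the cytoskeletal linkers DST and MACF1, ARL15 and the histone acetyltransferase KAT6B. DST had 4009, 3981 and 3967 CPM in mESC and 236, 228 and 232 CPM in K562, and KAT6B 2752, 2759 and 2752 and 199.6, 201 and 195 CPM. MACF1 had 3304 CPM in mESC and 1306 CPM in K562, and ARL15 2759.6 CPM in mESC and 1789.9 CPM in K562. In K562 the top were PRKCB, GSE1, AGAP1, FGF13 and SMYD3. PRKCB, a protein kinase C of blood cells, had 2849, 2843 and 2903 CPM in K562 and 3.65, 4.24 and 3.23 CPM in mESC (log2 9.51, SE 0.029, edgeR adjusted p = 8.72e-67). FGF13, a channel regulator of neurons, had 2495, 2459.7 and 2539.6 CPM in K562 against 11.6, 11.1 and 11.7 CPM. SMYD3, a methyltransferase, was high in both lines, with 2068 CPM in mESC and 2430.2 CPM in K562, and AGAP1 had 725 CPM in mESC and 2586 CPM in K562. Per kb of span PRKCB fell to rank 328 in K562 and DST to rank 454 in mESC.

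By size of the log2 ratio alone, among genes of at least 20 CPM averaged over the lines, the ends were filled by zeros. ASNS and EEF1G at the lower end and GSE1, ZFPM1, GALNT2 and LPIN2 at the upper end were covered in the species with 0. ARHGEF18 (498 CPM in mESC) and PTPRK were listed at 0 in K562 and GNGT1 (363 CPM in K562) at 0 in mESC, with their span free in the annotation used here. Taking instead genes with a free span and at least 4 counts in each line, a rule added after these values were seen, the lower end held SH3GL2, ZFP57, FUT9, PLPP1 and FAM169A. SH3GL2, an endophilin, had 850.4, 860.0 and 852 CPM in mESC and 0.399, 0.205 and 0.226 CPM in K562 (log2 -11.63, SE 0.061, edgeR adjusted p = 3.82e-59). ZFP57, which protects imprints, had 325 CPM in mESC and 0.142 CPM in K562, and FUT9, the enzyme that makes the stem cell antigen SSEA-1, 555, 549.9 and 555 and 0.3, 0.205 and 0.226 CPM. PLPP1 and FAM169A had 839 and 454 CPM in mESC and 0.448 and 0.245 CPM in K562.

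The upper end held GALNT5, RIPOR3, ACSM3, SLC30A8 and SEL1L3. GALNT5, a glycosyltransferase, had 300.4, 306 and 317 CPM in K562 and 0.0385, 0.101 and 0.032 CPM in mESC (log2 12.15, SE 0.089, edgeR adjusted p = 5.97e-54). RIPOR3 had 584, 602 and 583 and 0.115, 0.135 and 0.224 CPM. ACSM3, an acyl-CoA synthetase, had 0.211 CPM in mESC and 551 CPM in K562, SLC30A8, the zinc transporter of islet cells, 0.0454 CPM in mESC and 122 CPM in K562, and SEL1L3 0.136 CPM in mESC and 319 CPM in K562. In all of these the low line had between 4 and 18 counts over its 3 libraries.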

How the data were processed

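Input caRNA libraries of WT K562 cells and WT mESC were analysed, 3 per line. The authors isolated nuclei with NP-40 lysis and a sucrose cushion, lysed them in urea buffer and kept the chromatin pellet. RNA was depleted of rRNA, and stranded libraries were sequenced. The authors trimmed reads with Trimmomatic 0.39, mapped them with HISAT2 2.1.0 to the mouse or the human genome, processed alignments with SAMtools 1.16.1 and deposited raw HTSeq read counts per gene for each library, not normalized. The Input libraries held no spike-in counts used here, so levels are relative to each library. HTSeq summary lines, which name no gene, equalled 19.0% to 19.3% of all counted reads in mESC and 26.0% to 26.2% in K562 and were left out.

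Gene symbols, spans and exonic lengths came from GENCODE M21 (GRCm38) and GENCODE 44 (hg38), which matched 99.9% of mouse and 99.1% of human gene IDs; the study names releases M19 and v29. The free share of a span was computed from these annotations. Counts of 16409 shared genes were scaled by TMM, filtered with filterByExpr and tested with the edgeR 4.0.16 quasi-likelihood test in R 4.3.3, with line as the only term and Benjamini-Hochberg adjustment at 0.05. On simulated data for this comparison the test recovered 182 of 200 genes changed by 1.5-fold (12732 genes) and 200 of 200 changed by 4-fold (12747 genes). Of the calls, 3.19% and 6.1% were false. Since 200 genes were changed, the simulation does not cover a comparison in which most genes differ. Where a line had 0 counts, the fold is a bound against 3 counts over the group; with 1 to 3 counts it is a CPM ratio with an exact Clopper-Pearson 95% interval. Shares were compared by exact two-sided permutation over the 6 libraries. Tables were made with pandas 2.3.3 and SciPy 1.17.1.

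The members and gene lists were chosen with earlier results of these data known. The rule for named genes took the 5 most extreme genes at each end with at least 20 CPM on average over the lines, the 5 most abundant in each line, and 3 extreme members and the 1 nearest 0 of each list with at least 1 CPM in a line. It also took the 5 most extreme genes of at least 300 kb and 5 CPM at each end and a few fixed markers, 152 genes in all with those of a rule added later over genes with a free span and at least 4 counts in each line. Some of these genes are not reported here. Other list members were named for their role after their values were seen. DESeq2 1.42.0, RLE and library size scaling, no filter, length offsets, protein-coding genes, thinned mESC counts, the replicate block, K562 as 1 sample and leaving out each library were alternatives; those on free span and the grouping by chromosome were added after seeing the data. The design had foreseen levels per exonic length, but counts covered whole spans, so levels are given per kb of span.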

Additional observations from a re-analysis of the deposited data

How the results depend on the processing

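The number of genes past the threshold in each direction stayed within 1.5 times the reported one in all 18 alternatives, from 5359 to 6031 higher and 5798 to 6923 lower. With each library left out in turn the counts ran from 5560 to 5716 higher and 6181 to 6495 lower. Replicate numbers did not pair the libraries, as the deviations of same-numbered libraries correlated at -0.0052, -0.0072 and -0.018, and with the replicate block 5685 genes were higher and 6364 lower. Library size scaling alone moved the median log2 from -0.13 to -0.05.

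Across the 3289 values of named genes under alternatives, 3231 kept direction and side of the threshold, 9 lost a call, 17 gained one and 32 reversed. Per exonic base the log2 ratio reversed for BAP1 (0.13), CSF3R (-0.33), DLEU2 (0.044), HNRNPUL1 (0.51), MRPL16 (0.75), TCF7 (-0.94), TFRC (-0.96), U2AF2 (0.24) and ZBTB1 (1.16). Per base of span it reversed for BAP1 (0.25), MRPL16 (0.38), NDUFB5 (-0.24), NSUN2 (1.47), SOCS3 (0.076), TFRC (-0.82), U2AF2 (0.20) and ZBTB1 (0.24). Per base of free span it reversed for BAP1 (0.22), MRPL16 (0.35), NDUFB5 (-0.27), NSUN2 (1.44), SOCS3 (0.048), TFRC (-0.85), U2AF2 (0.27) and ZBTB1 (0.21). With the K562 libraries as 1 sample it reversed for DLEU2 (0.11), HNRNPUL1 (0.034) and U2AF2 (0.11), with library size scaling alone for DLEU2 (0.085), HNRNPUL1 (0.0090) and U2AF2 (0.081), and with mESC counts thinned for DLEU2 (0.053). The cause was not tested. The sign of the list median relative to all genes turned in at least 1 alternative for HOX, lymphoid, m5C, megakaryocyte and myeloid, primed, p53, mitochondrial ribosomal, respiratory chain and zinc finger lists.

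Differences in shares, K562 minus mESC in percentage points, depended on the denominator. Over all genes of each annotation they were -0.79 for the middle span class, -1.56 for the longest and -0.407 for genes of at least 300 kb. Without mitochondrially encoded genes and the 10 most abundant they were -0.0466, 0.0382 and -0.331 for the third and the fourth class and genes of at least 300 kb, and 0.0617 for the next 10. By exonic length the second, the fourth and the fifth class gave 0.776, 2.14 and -3.43, and the median log2 ratios of the 5 classes were -0.18, 0.00252, -0.078, -0.053 and -0.29. For the middle span class, leaving out a library gave -0.0327 to 0.0282. Spearman's rho across genes was 0.513 per kb of span and 0.565 on CPM, against 0.470 per kb of exonic length. Depth limits the low end: 3 counts stand for 0.300 CPM or more in a K562 library.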

Other observations

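A stretch of human chromosome 9 around CDKN2A, looked at after the values of that gene were seen, had almost no K562 counts. Between FOCAD (143 CPM in K562) and CAAP1 (68.1 CPM), at chr9:20995956-26840684 (hg38), lie 21 shared genes, of which 17 were free over at least 50% of their span. The 21 genes held 2 counts in all K562 libraries together and 50623 in mESC. Of the mESC counts, 37802 lay in ELAVL2 and 10449 in MTAP, which was covered in human. In mESC 5 of them reached 1 CPM, HACD4, KLHL9, MTAP, CDKN2A and ELAVL2, a neuronal RNA-binding protein gene. KLHL9, an adaptor of a ubiquitin ligase, had 19.5 CPM in mESC and 0 in K562, and ELAVL2 434 and 0.0333 CPM.

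Genes were also grouped by 10 Mb of human chromosome, again after the data were seen, over the 268 bins with at least 15 tested genes. The bin from 20 to 30 Mb of chromosome 9 had the lowest median log2 ratio, -2.57 over 15 genes, with 10 of the 15 past a log2 of -1. Other bins were nearly as low. The bin from 80 to 90 Mb of chromosome 7 was at -2.44, with 12 of 15 genes past a log2 of -1. At 60 to 70 Mb of chromosome 3 the median was -2.16, with 16 of 19 genes past it. The highest medians were at 50 to 60 Mb of chromosome 22 (1.93), 40 to 50 Mb of chromosome 21 (1.40), 150 to 160 Mb of chromosome X (1.32) and 10 to 20 Mb of chromosome 22 (1.17). Gene content, gene length and the number of genes differ between bins, and their part was not tested.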
